A study of Mus musculus with 12 samples.

Results

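The 10 genes described here lie next to Nos3, the gene of endothelial nitric oxide synthase, on mouse chromosome 5: Kcnh2, Atg9b, Abcb8, Cdk5, Slc4a2, Fastk, Agap3, Abcf2, Chpf2 and Smarcd3. They were chosen by name as neighbours of the targeted locus, with earlier results of these data known. All 10 were measured among 18194 genes, with 17 probe sets between them. Kcnh2 stands directly on one side of Nos3 in the RefSeq gene order, and the other 9 lie on the other side. The block of measured genes from Kcnh2 to Smarcd3 holds 15, with Nos3 itself and 4 further genes, Asic3, Tmub1, Gbx1 and Asb10. Annotated spans overlap between Nos3 and Atg9b, Abcb8 and Cdk5, Cdk5 and Asic3, and Chpf2 and Smarcd3.

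The 12 arrays carried ventricular RNA of mouse embryos at 14.5 days post coitum, each from a pool of 15 to 30 embryos. Knockout pools (KO) came from the strain B6.129P2-Nos3tm1unc/J, which carries the targeted Nos3 allele on both copies and in every tissue, and wild-type pools (WT) from CD1 mice. Left and right ventricles (LV and RV) of each were dissected apart, which gave the groups KO_LV, WT_LV, KO_RV and WT_RV with 3 arrays each. The 2 genotypes thus differ in strain over the whole genome, and no group was of the KO strain with an intact Nos3, so the effect of the allele cannot be told apart from that of the DNA around it or of the strain. Separate pools are separate samples by their labels, and p-values measure the spread between pools.

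A gene targeted in embryonic stem cells of one strain and then crossed onto another keeps a stretch of donor chromosome on both sides of the altered gene, because recombination close to it is rare. Genes on that stretch travel with the allele and are called passengers. Passenger genes can differ in expression from the comparison strain whatever the targeted gene does, and a sequence difference under a probe can change a reading with no change in RNA. The question was whether the genes next to Nos3 differed between KO and WT more often than genes elsewhere.

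Values are log2 expression as deposited, so a difference of 1 is a doubling, and a gene was called where limma's p, adjusted over all 18194 genes, was under 0.05. The median of all values was 5.67. Nos3 read 7.95, 8.02 and 7.86 in the KO left ventricles and 8.36, 8.39 and 8.30 in the WT left ventricles. It read 8.23, 8.04 and 7.77 in the KO right ventricles and 8.72, 8.94 and 8.37 in the WT right ventricles. No KO value reached a WT value in either ventricle, though Nos3 was still read far above the median value of the arrays, and whether its probe set lies outside the disrupted part is not known. The left difference of -0.41 (limma adjusted p = 0.0376) lost its call without any 1 of the 6 left ventricular arrays (-0.445 to -0.365, adjusted p 0.0582 to 0.114), with median centring (-0.31, limma adjusted p = 0.0989) and at a threshold of 0.01. The right one of -0.66 (limma adjusted p = 0.00983) kept its call in all 24 alternative settings. With a model term for the added poly-A controls, described next, the left difference of Nos3 was -0.87 and not called (limma adjusted p = 0.0635), and the right one was -0.82 (limma adjusted p = 0.00205).

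Technical measures moved with the groups. Hybridization controls averaged 11.33 to 11.41 in KO_LV and 11.56 to 11.70 in WT_LV. In the right ventricle they averaged 11.34 to 11.42 in KO_RV and 11.34 to 11.58 in WT_RV. Array medians were 5.57 to 5.66 in KO_LV and 5.69 to 5.74 in WT_LV. They were 5.63 to 5.66 in KO_RV and 5.66 to 5.70 in WT_RV. Poly-A transcripts added to the RNA before labelling averaged 8.06 to 8.47 in KO_LV and 8.89 to 8.94 in WT_LV, 7.35 to 8.37 in KO_RV and 8.05, 8.13 and 8.96 in WT_RV, where replicate 3 stood apart. A model with a term for the 4 arrays of high control level (all of WT_LV and WT_RV replicate 3) rests on that 1 array. In the right ventricle it gives the same values as the fit without WT_RV replicate 3, so the 2 are not separate checks there. With it 1.08% of all genes were called in the left and 5.31% in the right ventricle, against 30.9% and 8.19% without it. Counts over marker lists stand against shares of all genes called higher of 18.6% in the left and 4.61% in the right ventricle, and called lower of 12.3% and 3.58%. Of the cardiomyocyte markers 3 of 8 were called higher in KO in the left and 1 of 8 in the right ventricle, and of the nerve and neural crest markers 2 of 5 and 1 of 5 (mean level 6.30 to 6.51 in KO_LV and 6.15 to 6.27 in WT_LV, 6.26 to 6.33 in KO_RV and 6.23 to 6.36 in WT_RV). Leukocyte genes were called higher in KO for 7 of 8 in the left (mean level 7.64 to 7.92 in KO_LV, 6.82 to 6.98 in WT_LV) and 3 of 8 in the right ventricle. Endothelial genes were called higher for 5 of 8 (9.30 to 9.52 in KO_LV, 8.75 to 9.14 in WT_LV) and 0 of 8, and fetal liver genes lower for 2 of 7 (5.59 to 6.37 in KO_LV, 6.40 to 7.79 in WT_LV) and 0 of 7. Erythroid genes were called higher for 1 and lower for 1 of 6 in the left and lower for 2 of 6 in the right ventricle, and atrial genes higher for 3 of 6 and 2 of 6. Right ventricular levels (KO_RV, then WT_RV) were 7.08 to 7.34 and 6.82 to 6.85 for leukocyte genes. They were 9.23 to 9.35 and 8.97 to 9.31 for endothelial and 6.22 to 7.03 and 6.68 to 8.88 for fetal liver genes. With the control term, 3 of the 48 measured markers were called higher and 0 lower in the left ventricle. In the right, 4 were called higher and 2 lower with it. The part of these in the results on the neighbours was not tested, and in such bulk tissue fewer cells of a type and less RNA per cell cannot be told apart. All 8 cardiomyocyte markers were measured and lay far above the median of all values in their mean, which was 12.95 to 13.07 in KO_LV and 12.59 to 12.63 in WT_LV. In the right ventricle it was 13.07 to 13.19 in KO_RV and 12.71 to 13.05 in WT_RV, so that this mean was higher on KO arrays in both ventricles. Of the 8 markers Myh6 differed most, by 1.76 in the left and 1.33 in the right ventricle. The median difference of the 8 was 0.25 and 0.06.

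In the left ventricle 3 of the 10 neighbours were called different in KO, against 30.9% of all genes. Cdk5 and Smarcd3 fell and Kcnh2 rose, against 12.3% of all genes called lower and 18.6% called higher. In the right ventricle Cdk5, Abcf2 and Smarcd3 fell and none rose, which is 3 of 10 against 8.19% of all genes, or 3.58% called lower and 4.61% called higher. The median difference of the 10 was -0.04 in the left and -0.14 in the right ventricle, against -0.01 and -0.04 over all genes, and the median size of the difference was 0.185 and 0.18, against 0.19 and 0.14 over all genes. Called lower in both ventricles were 2 of 10, against 2.25% of all genes, and called higher in both 0 of 10, against 4% of all genes. The left count is thus near the share of all genes, and the right count, larger in share, comes from 10 genes only. The right count was 0 without WT_RV replicate 2, WT_RV replicate 3, KO_RV replicate 1 or KO_RV replicate 2, and 1 without WT_LV replicate 2, KO_LV replicate 1, KO_LV replicate 3 or KO_RV replicate 3. In the left ventricle the 2 lower calls held without any 1 array, and the higher count was 0 without KO_LV replicate 3. With the control term no neighbour was called in either ventricle, which in the right ventricle repeats the result without WT_RV replicate 3.

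**Figure D1:**
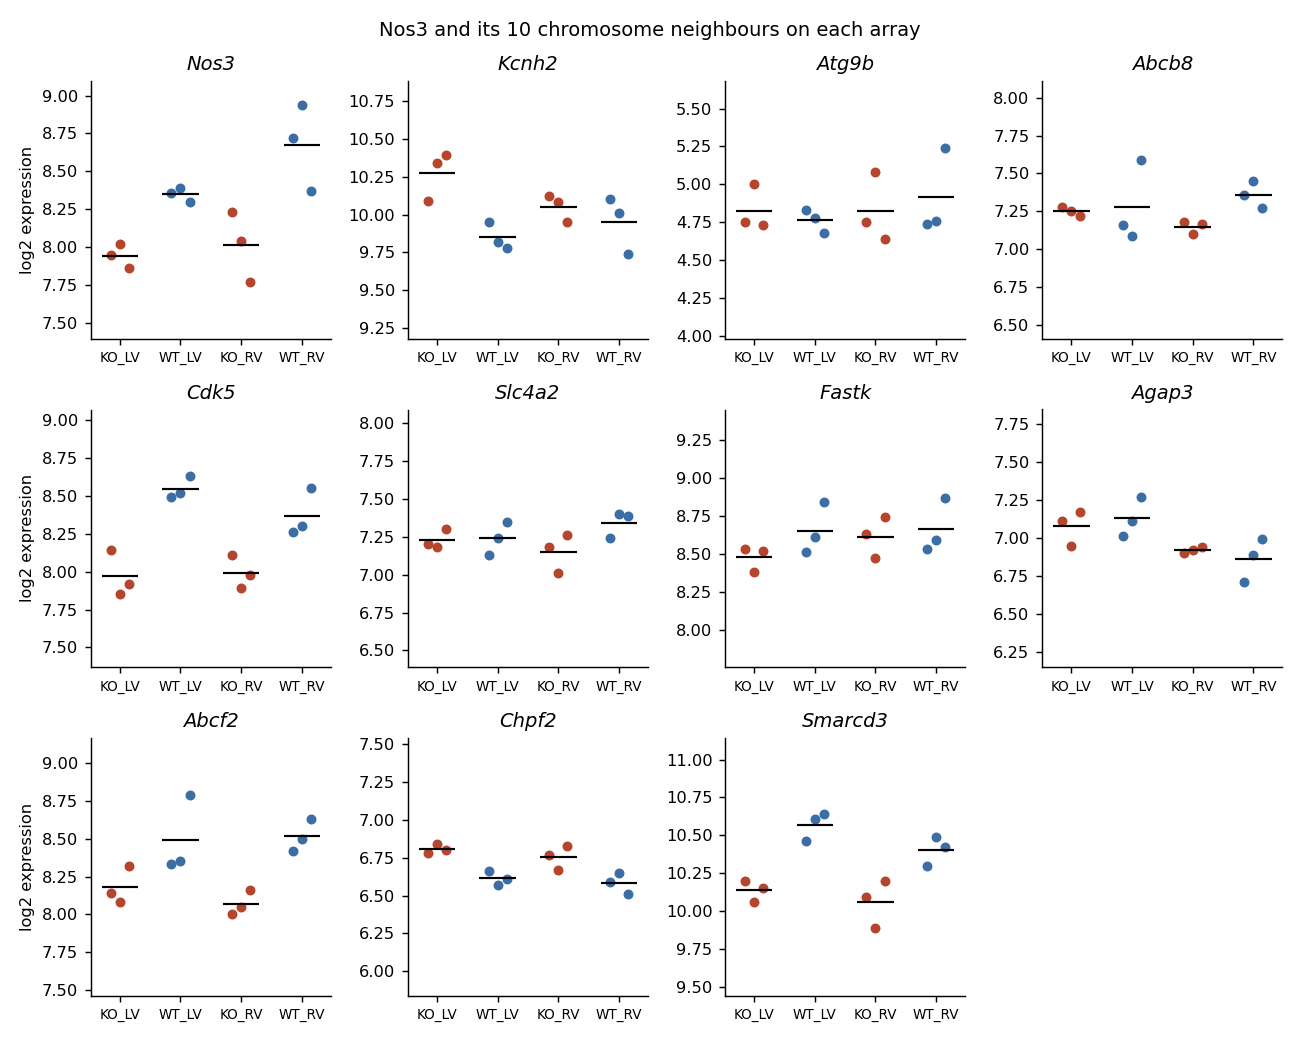
Log2 expression (vertical axis, 1.7 units high in every panel) of Nos3, in the first panel, and of the 10 neighbours in chromosome order, in KO_LV, WT_LV, KO_RV and WT_RV. Each point is 1 array and each line the mean of 3. KO arrays of Cdk5, Abcf2 and Smarcd3 lie below the WT arrays in both ventricles, and those of Slc4a2, Fastk and Agap3 overlap with them in both.

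Cdk5, a cyclin-dependent kinase that is activated by p35 and p39 rather than by cyclins and is best known from neurons, had the largest difference of the 10 when both ventricles are averaged. It read 8.14, 7.85 and 7.92 in KO_LV and 8.49, 8.52 and 8.63 in WT_LV. Right ventricles gave 8.11, 7.89 and 7.98 in KO_RV and 8.26, 8.30 and 8.55 in WT_RV. The groups did not overlap in either ventricle, and the KO level was 0.671 times the WT level in the left and 0.770 times in the right. The difference was -0.58 in the left (SE 0.11, limma adjusted p = 0.0014) and -0.38 in the right (SE 0.11, limma adjusted p = 0.043). Under the control term it was -0.31 in the left (limma adjusted p = 0.488) and -0.29 in the right (limma adjusted p = 0.14). The right call was lost without any 1 of WT_RV replicates 2 and 3 and the 3 KO_RV arrays (-0.44 to -0.29, limma adjusted p 0.0601 to 0.14), and also, at the same difference, without WT_LV replicate 1, WT_LV replicate 2 or KO_LV replicate 3.

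Smarcd3, which encodes the BAF60c subunit of the BAF chromatin remodelling complex and is required in mouse for heart development, fell in both ventricles. It read 10.20, 10.06 and 10.15 in KO_LV and 10.46, 10.61 and 10.64 in WT_LV. Its right ventricular values were 10.09, 9.89 and 10.20 in KO_RV and 10.30, 10.49 and 10.42 in WT_RV. Every KO array lay below every WT array of the same ventricle. The difference was -0.43 in the left (SE 0.10, limma adjusted p = 0.00483) and -0.34 in the right (SE 0.10, limma adjusted p = 0.0454). With the control term the differences stood at -0.41 and -0.34, neither called (limma adjusted p = 0.338 and 0.0998). The right call was lost without WT_RV replicate 2 or 3 or KO_RV replicate 1 or 2 (-0.36 to -0.26, limma adjusted p 0.0998 to 0.155), and, at the same difference, without WT_LV replicate 2 or any 1 KO_LV array.

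Abcf2, an ATPase of the ABC-F group that lacks membrane-spanning parts and is no transporter, was lower in KO in the right ventricle. It read 8.0, 8.05 and 8.16 in KO_RV and 8.42, 8.50 and 8.63 in WT_RV. In the left ventricle it read 8.14, 8.08 and 8.32 in KO_LV and 8.33, 8.35 and 8.79 in WT_LV. The groups did not overlap in either ventricle, but in the left the highest KO array and the lowest WT array were almost level. The right difference was -0.45 (SE 0.12, limma adjusted p = 0.0372) and the left one -0.31 (SE 0.12, limma adjusted p = 0.0672). With the control term they were -0.39 and -0.14, neither called. The right call was lost without WT_RV replicate 2, WT_RV replicate 3 or any 1 KO_RV array (-0.49 to -0.39, limma adjusted p 0.0636 to 0.126), and, at the same difference, without KO_LV replicate 1 (0.0531). The left difference was called in 4 alternatives. These were without WT_LV replicate 1 (-0.39, limma adjusted p = 0.0462), with a second quantile normalization (-0.42, limma adjusted p = 0.0218), and with the replicate number as a fixed (-0.31, limma adjusted p = 0.0164) or random block (limma adjusted p = 0.0433).

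Kcnh2, the pore-forming subunit of the channel that carries the rapid delayed rectifier potassium current and so helps to end the cardiac action potential, was the one neighbour called higher. It read 10.09, 10.34 and 10.39 in KO_LV and 9.95, 9.82 and 9.78 in WT_LV, without overlap. Right ventricular arrays gave 10.12, 10.08 and 9.95 in KO_RV and 10.10, 10.01 and 9.74 in WT_RV, where the groups overlapped. The difference was 0.42 in the left (SE 0.11, limma adjusted p = 0.0111) and 0.10 in the right (SE 0.11, limma adjusted p = 0.601). The interaction of genotype and ventricle, -0.32 (SE 0.16), was not called (limma adjusted p = 0.367), so the ventricles were not shown to differ. Under the control term Kcnh2 stood at 0.11 in the left and -0.005 in the right ventricle (limma adjusted p = 0.858 and 0.985). Without KO_LV replicate 3 the left difference was 0.365 and no longer called (limma adjusted p = 0.0508).

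**Figure D2:**
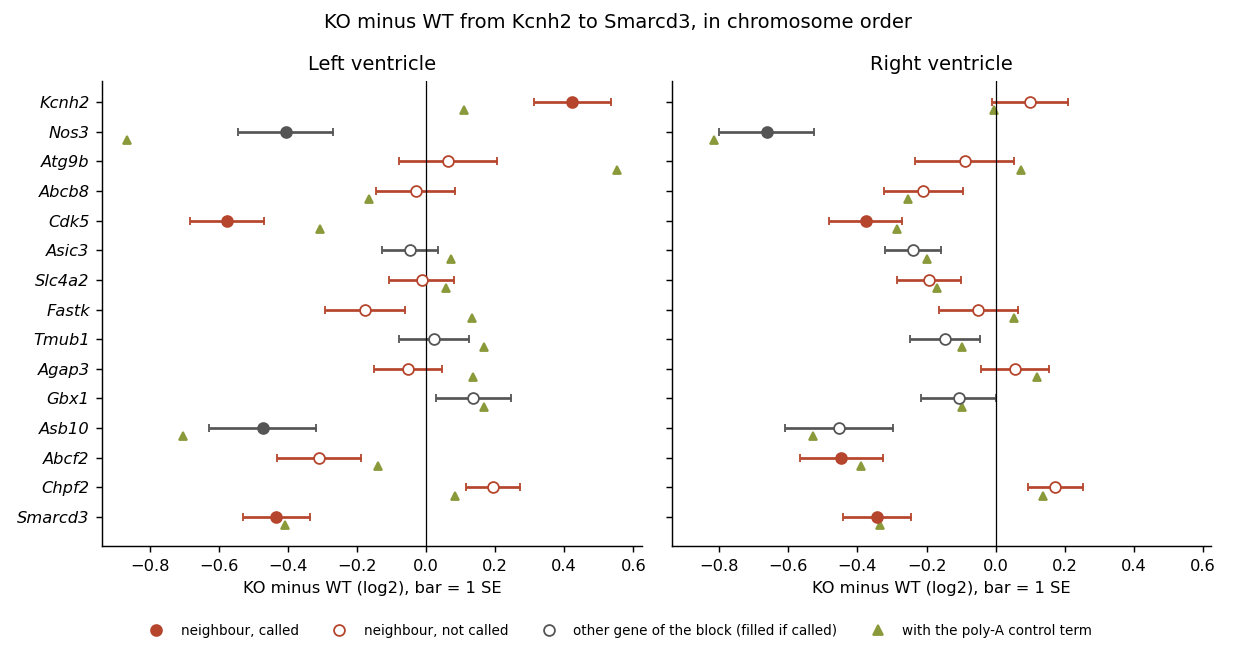
KO minus WT on the log2 scale (horizontal axis) for the 15 measured genes of the block in chromosome order, left and right ventricle. Circles are the fitted differences with bars of 1 SE, filled where called, and triangles are the differences with the poly-A control term. Differences of the neighbours run from -0.58 (Cdk5) to 0.42 (Kcnh2) in the left and from -0.45 (Abcf2) to 0.17 (Chpf2) in the right ventricle.

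Promoter sequence was available for 8 of the 10 neighbours (RefSeq, GRCm38.p6) and not for Abcb8 and Cdk5. It is shown for the 3 called neighbours that have it, from 250 bases before to 50 after the annotated start, with GGGCGG on either strand, a letter pattern bound by Sp1-type zinc finger proteins, in capitals. Kcnh2 lies at chr5:24329542-24329841, Abcf2 at chr5:24577418-24577717 and Smarcd3 at chr5:24601953-24602252, all on the minus strand, and the table holds 2 entries for Abcf2, of which 1 is shown.
Kcnh2: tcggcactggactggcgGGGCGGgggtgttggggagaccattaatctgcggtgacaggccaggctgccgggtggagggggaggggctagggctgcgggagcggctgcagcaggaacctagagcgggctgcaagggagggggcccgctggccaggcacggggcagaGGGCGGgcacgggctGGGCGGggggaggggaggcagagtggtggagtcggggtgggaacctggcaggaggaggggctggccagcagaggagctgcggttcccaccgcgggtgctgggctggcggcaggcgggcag
Abcf2: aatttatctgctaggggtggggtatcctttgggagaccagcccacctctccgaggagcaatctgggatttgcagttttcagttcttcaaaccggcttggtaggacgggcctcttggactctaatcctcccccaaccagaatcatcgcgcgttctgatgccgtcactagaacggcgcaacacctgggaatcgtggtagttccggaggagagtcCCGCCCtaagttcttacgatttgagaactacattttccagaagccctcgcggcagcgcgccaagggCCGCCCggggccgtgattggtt
Smarcd3: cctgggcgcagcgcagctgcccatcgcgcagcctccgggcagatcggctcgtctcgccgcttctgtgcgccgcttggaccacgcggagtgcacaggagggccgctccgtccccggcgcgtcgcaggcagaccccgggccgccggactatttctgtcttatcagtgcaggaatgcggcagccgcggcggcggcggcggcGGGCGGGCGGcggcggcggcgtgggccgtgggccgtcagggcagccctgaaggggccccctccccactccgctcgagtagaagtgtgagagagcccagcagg
The pattern occurred 3 times in the Kcnh2 stretch and 2 times each in those of Abcf2 and Smarcd3, and in Smarcd3 the 2 overlap. At least 1 copy was present in 35.7% of 32851 promoters of the same length. Pairs of C followed by G numbered 19 for Kcnh2, 20 for Abcf2 and 40 for Smarcd3, against a median of 7 over those promoters. All 3 stretches thus hold the pattern, and no group of promoters was compared.

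Chpf2, an enzyme that helps to build the sugar chains of chondroitin sulfate, gave opposite readings from its 2 probe sets. The set with the higher mean read 6.78, 6.84 and 6.80 in KO_LV and 6.66, 6.57 and 6.61 in WT_LV, and 6.77, 6.67 and 6.83 in KO_RV and 6.59, 6.65 and 6.51 in WT_RV. KO lay above WT on every array of a ventricle, by 0.19 in the left (SE 0.08, limma adjusted p = 0.0788) and 0.17 in the right (SE 0.08, limma adjusted p = 0.184), neither called. The other set read 6.43, 6.80 and 6.35 in KO_LV and 6.92, 6.84 and 6.67 in WT_LV, a difference of -0.28. For the right ventricle that set read 6.62, 6.54 and 6.23 in KO_RV and 6.76, 6.67 and 6.74 in WT_RV, a difference of -0.26. For this set the groups overlapped in the left ventricle and did not in the right, and neither difference was called. The direction for Chpf2 thus depends on the probe set. For the set used, the left difference was called with dim genes left out (limma adjusted p = 0.0479) and with median centring (0.29, limma adjusted p = 0.0248).

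Cdk5 and Abcf2 also have more than 1 probe set. The sets of Cdk5 differed in the size of the difference, and those of Abcf2 in its sign in both ventricles. The second set of Cdk5 read -0.31 in the left (limma adjusted p = 0.0233 over all probe sets) and -0.05 in the right, and the last one, below the median of all values, -0.08 and -0.24. The set of Cdk5 used stood at -0.58 and -0.38 in that fit (limma adjusted p = 0.00243 and 0.0567). The second set of Abcf2 read 0.13 and 0.03 where the one used read -0.31 and -0.45 (limma adjusted p = 0.0829 and 0.0503 over all probe sets). With the mean of all probe sets of a gene, 1 neighbour, Smarcd3, remained called in the right ventricle. In left and right ventricle the second sets read -0.28 and -0.07 for Agap3, -0.09 and -0.12 for Abcb8 and 0.16 and 0.13 for Atg9b, none called. For Agap3 and Atg9b the second set is below the median of all values. Its sign in the right ventricle is opposite to that of the set used. Smarcd3, Kcnh2, Slc4a2 and Fastk have 1 set each, so no second reading exists for them.

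**Figure D3:**
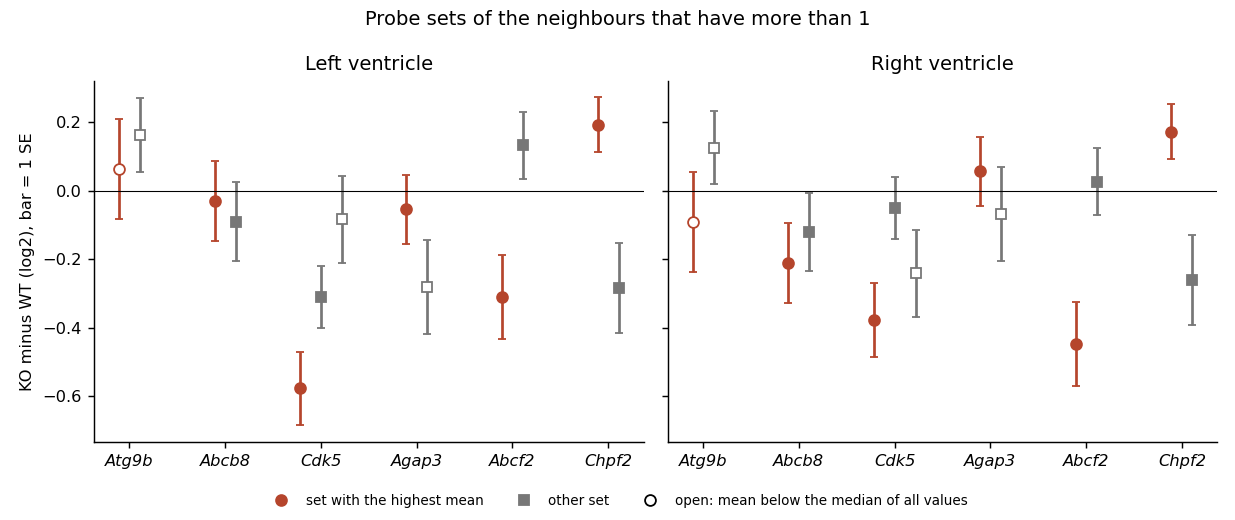
KO minus WT on the log2 scale (vertical axis, bars 1 SE) for every probe set of the 6 neighbours with more than 1, left and right ventricle. Circles are the set with the highest mean of a gene and squares its other sets, open where the mean over 12 arrays is below the median of all values. The sets of Chpf2 lie on opposite sides of 0 in both ventricles, and so do those of Abcf2.

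The remaining neighbours were not called in either ventricle. Slc4a2, an exchanger of chloride for bicarbonate in the plasma membrane, read 7.18 to 7.30 in KO_LV and 7.13 to 7.35 in WT_LV, a difference of -0.01 (SE 0.09), and stood at -0.19 (SE 0.09) in the right ventricle. Fastk, founder of a family of RNA-binding proteins of mitochondria, read 8.38 to 8.53 in KO_LV and 8.51 to 8.84 in WT_LV and stood at -0.18 (SE 0.12) in the left and -0.05 (SE 0.12) in the right ventricle. Agap3, which switches off Arf GTPases, read 6.95 to 7.17 in KO_LV and 7.01 to 7.27 in WT_LV and stood at -0.05 (SE 0.10) in the left and 0.06 (SE 0.10) in the right ventricle. KO and WT arrays overlapped for all 3 in both ventricles.

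Abcb8, a transporter of the inner mitochondrial membrane, read 7.28, 7.25 and 7.22 in KO_LV and 7.16, 7.09 and 7.59 in WT_LV, a difference of -0.03 (SE 0.11). In the right ventricle it read 7.18, 7.10 and 7.17 in KO_RV and 7.36, 7.45 and 7.27 in WT_RV. The right groups did not overlap, but the difference of -0.21 (SE 0.11) was not called (limma adjusted p = 0.263). Atg9b belongs to the ATG9 membrane proteins of autophagy. It read 4.64 to 5.24 over all 12 arrays, below the median of all values, and stood at 0.06 (SE 0.14) in the left and -0.09 (SE 0.14) in the right ventricle.

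Over the 10 neighbours, KO and WT arrays did not overlap for 2 with KO higher (Kcnh2 and Chpf2) and 3 with KO lower (Cdk5, Abcf2 and Smarcd3) in the left ventricle, against 44.4% of all genes, 23.8% with KO higher and 20.6% with KO lower. In the right ventricle this held for 1 with KO higher (Chpf2) and 4 with KO lower (Abcb8, Cdk5, Abcf2 and Smarcd3), against 29.4% of all genes, 11.8% with KO higher and 17.6% with KO lower. The sign was the same in both ventricles for 8 of the 10, against 73.9% of all genes. For each non-overlapping neighbour the two-sided exact permutation p was 0.1, the smallest that 3 against 3 arrays allow.

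No neighbour was called between the chambers or in the interaction of chamber and genotype, in a fit that took left and right pools as unpaired. By limma 0 of the 10 were called in the interaction (0.022% of all genes) and 0 at an unadjusted p under 0.05, and their interaction values ran from -0.32 (Kcnh2) to 0.20 (Cdk5). Between right and left ventricle 0 were called in KO (1.14% of all genes, with 0.55% higher and 0.594% lower), and 0 at an unadjusted p under 0.05. In WT 0 were called (0.984% of all genes, with 0.764% higher and 0.22% lower) and 1, Agap3, had an unadjusted p under 0.05. Right minus left ran from -0.22 (Kcnh2) to 0.14 (Fastk) in KO and from -0.27 (Agap3) to 0.15 (Atg9b) in WT.

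Among the 4 other genes of the block, Asb10, an ankyrin repeat protein of the SOCS box family, fell in the left ventricle. It read 6.73, 6.65 and 6.67 in KO_LV and 6.80, 7.38 and 7.29 in WT_LV, and 7.0, 6.95 and 6.87 in KO_RV and 7.19, 7.75 and 7.24 in WT_RV. KO arrays lay below WT arrays in both ventricles, with differences of -0.47 (SE 0.16, limma adjusted p = 0.0334) and -0.45 (SE 0.16, limma adjusted p = 0.0877, not called). The left call was lost without WT_LV replicate 2 or 3 or any 1 KO_LV array (-0.50 to -0.36, limma adjusted p 0.0602 to 0.132), and the right difference was called without WT_LV replicate 1 (limma adjusted p = 0.0488). With the control term Asb10 stood at -0.70 and -0.53 and was not called. A second probe set of Asb10, also above the median of all values, read -0.13 and -0.05. The acid-sensing channel gene Asic3 stood at -0.05 and -0.24, Tmub1 at 0.02 and -0.15 and the homeobox gene Gbx1 at 0.14 and -0.11, none of them called.

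Farther from Nos3 the share of genes called did not fall with distance in the left ventricle. There 30% of the 10 measured genes on each side of Nos3 were called, 32% of the 25, 31% of the 50 and 32.2% of the 100 on each side, 33.9% of the rest of chromosome 5 and 30.9% of all genes. The right ventricular shares were 10%, 16%, 13% and 8.33%, with 6.38% for the rest of chromosome 5 and 8.19% for all genes. Only 80 measured genes lie before Nos3, so that the widest window holds 180 genes. On the side of Kcnh2 21 of 50 genes were called in the left and 9 of 50 in the right ventricle, and on the side of Atg9b 10 and 4 of 50. With dim genes left out the share in the window of 50 was 52.5% against 46.8% of all genes in the left and 18% against 12% in the right, and with the control term 2% against 1.08% and 8% against 5.31%. For this window the right ventricular share was 6% to 8% without WT_RV replicate 2, WT_RV replicate 3, KO_RV replicate 1 or KO_RV replicate 2, against 4.19% to 5.62% of all genes.

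**Figure D4:**
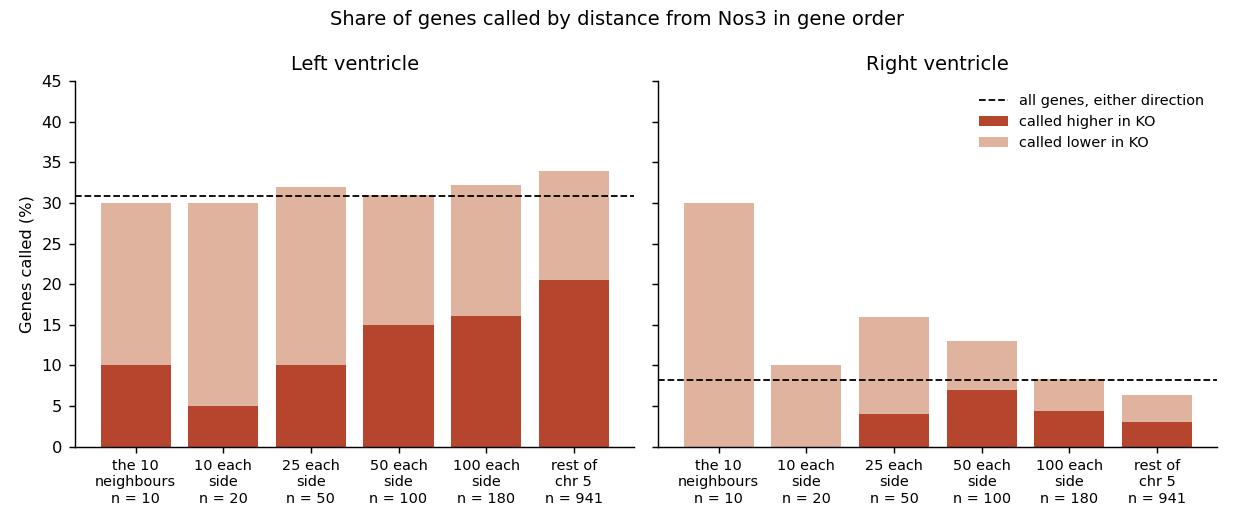
Share of genes called (vertical axis, percent) among the 10 neighbours, among windows of 10, 25, 50 and 100 measured genes on each side of Nos3, and on the rest of chromosome 5, left and right ventricle. Dark parts of the bars are genes called higher and light parts genes called lower in KO, and the dashed line is the share of all genes, 30.9% in the left and 8.19% in the right ventricle.

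The largest difference near Nos3 lay outside the 10 neighbours, in the long noncoding RNA AI506816, the 9th measured gene before Nos3. It read 4.81, 4.45 and 4.75 in KO_LV and 8.46, 7.65 and 8.18 in WT_LV. In the right ventricle it read 4.74, 4.74 and 4.77 in KO_RV and 8.37, 7.44 and 8.38 in WT_RV. All KO arrays were below and all WT arrays above the median of all values. Whether the KO values stand above background is not known, so no fold is given. The differences were -3.43 (SE 0.23, limma adjusted p = 6.4e-07) and -3.31 (SE 0.23, limma adjusted p = 9.46e-07), and they remained called with the control term at -2.95 and -3.155. It has 1 probe set.

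Within 50 genes of Nos3, Prkag2 was the largest rise on the side of Atg9b to be called in both ventricles. It encodes a regulatory subunit of AMP-activated kinase whose mutations in human cause a cardiomyopathy, and is the 18th measured gene after Nos3. It read 10.06, 10.04 and 10.05 in KO_LV and 9.42, 9.42 and 9.30 in WT_LV, and 9.92, 9.87 and 9.95 in KO_RV and 9.11, 8.91 and 9.26 in WT_RV. The differences were 0.67 and 0.82 (SE 0.09 each), and 0.92 and 0.90 with the control term, all called. Its other probe sets read 0.80 and 1.12, 0.15 and 0.20, and 0.14 and -0.06 in left and right ventricle, and the last of these is below the median of all values.

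On the side of Kcnh2, Ccdc146, a coiled-coil protein whose only probe set has a mean below the median of all values, rose by 1.40 in the left and 1.39 in the right ventricle (SE 0.15 each) and Gsap, an activator of gamma-secretase, by 0.59 and 0.68 (SE 0.10 each). They are the 26th and 27th measured genes before Nos3. A second set of Gsap read 0.58 and 0.59 and the remaining one 0.16 and -0.08, both below the median of all values. Lrrc17, which encodes a secreted leucine-rich repeat protein and is the 22nd gene before Nos3, stood at -1.26 and -1.32 (SE 0.18 each, called lower in both), and its second set, below the median of all values, read -0.14 and -0.06. With the control term Ccdc146 stood at 1.27 and 1.35, Gsap at 0.71 and 0.72 and Lrrc17 at -1.10 and -1.27, all called in the right ventricle and none in the left. The RNA-binding protein gene Rbm33, 37 genes after Nos3, was called higher by 0.71 in the left ventricle. Its other sets read -0.48 and -0.40 in that ventricle, the last called lower (limma adjusted p = 0.00848 over all probe sets). The direction for Rbm33 thus depends on the probe set. The noncoding 4831440E17Rik, 25 genes after Nos3, which reads below the median of all values, fell by 0.59 in the left ventricle. Rbm33 and 4831440E17Rik both lost the call with the control term (0.31 and -0.33). In the right ventricle they stood at 0.32 and -0.16, not called.

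**Figure D5:**
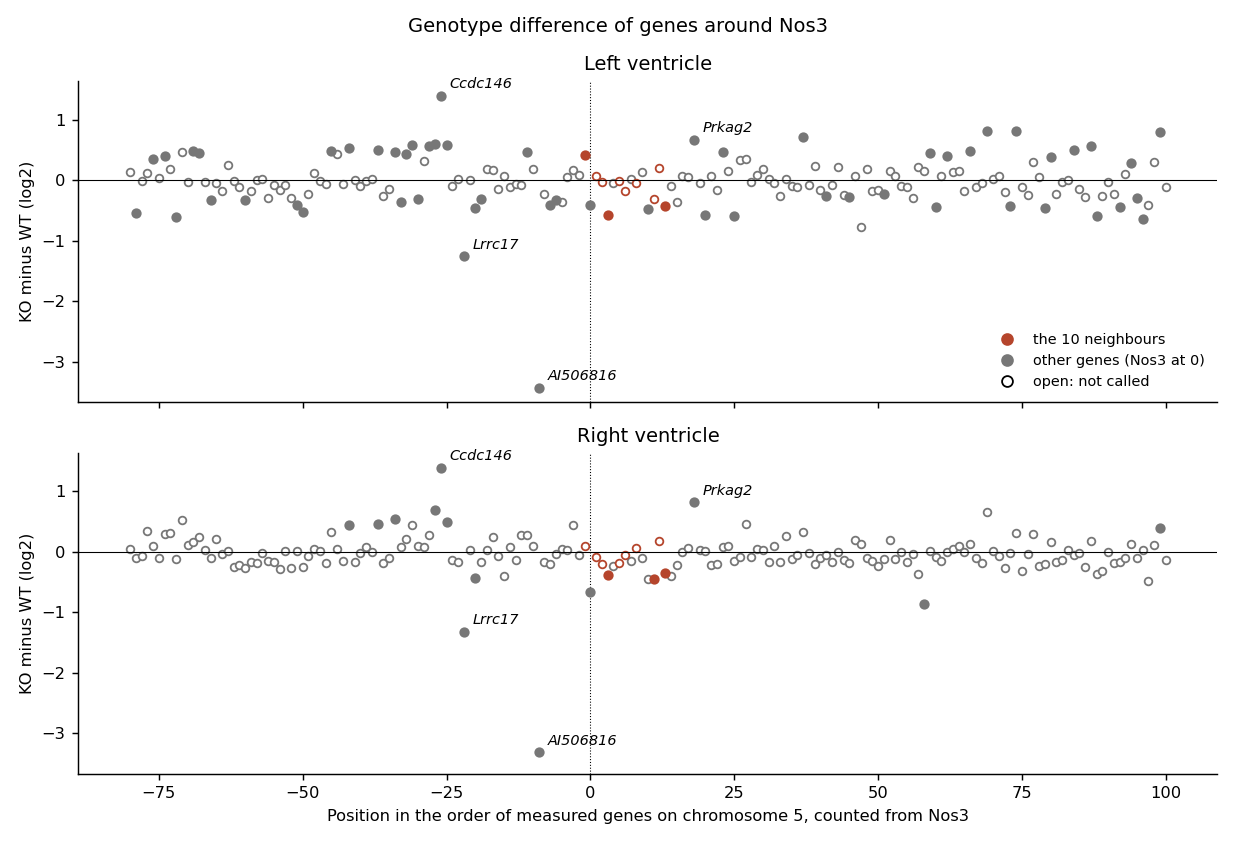
KO minus WT on the log2 scale (vertical axis) against the position in the order of measured genes on chromosome 5, counted from Nos3 at 0 (horizontal axis), left ventricle above and right below. Each point is 1 gene, filled where called, with the 10 neighbours in red. AI506816 at -3.43 and -3.31 lies far below all 10 neighbours, which stay between -0.58 and 0.42.

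Relatives and partners of the neighbours give a comparison by function. Of 56 listed 53 were measured, and in the left ventricle 19 rose and 9 fell, or 52.8% against 30.9% of all genes, and in the right 6 rose and 3 fell, or 17% against 8.19%. Most of the relatives read above the median of all values. With dim genes left out, 46.8% of all genes were called in the left and 12% in the right ventricle. The share of the relatives was not computed in that setting. In the BAF complex, to which Smarcd3 belongs, 5 of 12 listed members rose and 2 fell in the left ventricle, with the ATPase Smarca4 at 0.65, Arid1a at 0.79 and Smarcb1 at -0.32. Its paralogs Smarcd1 and Smarcd2 stood at 0.24 and 0.11, not called, whereas Smarcd3 fell. Of the 7 relatives of Cdk5, 2 were called higher and 2 lower in the left ventricle. Cdk5rap2 (0.61) and Cdk16 (0.42) were higher, and Cdk5rap1 (-0.56) and Cdk5r2 lower. The p35 and p39 activators of Cdk5, Cdk5r1 and Cdk5r2, stood at -0.20 (not called) and -0.31 (called) there, beside -0.58 for Cdk5. Cdk5r2 has a mean of 5.28, below the median of all values. Kcne1, a small subunit of cardiac potassium channels, fell by 0.34 in the left ventricle, where Kcnh2 rose, and Kcne2 rose in both (0.54 and 0.57). The mean of Kcne2, 4.26, is below the median of all values. Of the 6 chondroitin sulfate enzymes beside Chpf2, 3 rose in the left ventricle, led by Chst11 at 1.31 and Chsy1 at 0.65. Of the relatives of Slc4a2, the anion exchanger Slc4a3 fell in both ventricles (-0.48 and -0.52) and Slc4a1, the exchanger of red cells, in the right (-0.79). Agap1 rose in both (0.90 and 0.54) and Atg9a in the left ventricle (0.79), where Agap3 and Atg9b stood at -0.05 and 0.06, not called. Of the 53 relatives 0 were called by limma in the left ventricle with the control term, with 10 at an unadjusted p under 0.05, and Smarca4 stood at 0.19, Arid1a at 0.18, Chst11 at 0.61, Agap1 at 0.37 and Atg9a at 0.44. In the right ventricle 3 were called higher and 2 lower with it, among them Chst11 (0.55) and Slc4a1 (-0.87), while Kcne2 (0.50), Slc4a3 (-0.45) and Agap1 (0.36) were not called.

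The genes most like Cdk5 over the 12 arrays, by Pearson correlation among all genes, were 1700030K09Rik (r = 0.976), Tmem37 (0.974) and Rce1 (0.972). The arrays share the genotype groups and the array measures given above, and KO minus WT of the 3 genes stood at -0.31, -1.08 and -0.30 in the left and -0.15, -0.74 and -0.16 in the right ventricle.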

How the data were processed

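The authors deposited log2 expression values of 45101 probe sets on 12 Affymetrix arrays. Per the submitters' processing notes they come from RMA, with no version. This method brings the arrays towards a common distribution, so a change in most genes at once would largely not show. The deposited values still differed in their array medians, from 5.57 to 5.74, which were lower in KO_LV than in WT_LV. The number of arrays limits the precision. Groups and replicate numbers came from the titles, and 0 deposited columns were left unused.

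The platform annotation gave 34958 probe sets 1 symbol, 932 several and 9211 none. Of the first, 34754 matched RefSeq (GRCm38.p6), which gave gene names and order. Each gene was represented by its probe set of highest mean over the 12 arrays, which gave 18194 genes, dim ones included. Differences were fitted with limma 3.58.1 (lmFit and eBayes, R 4.3.3), with 1 mean per group and Benjamini-Hochberg adjustment over all genes, or over all probe sets where other sets are given. On simulated data with genes changed in KO_LV, the fit recovered 51% of changes of 0.5 and 90% of changes of 1, with 5 false calls. Far fewer genes were changed in that simulation than were called in the left ventricle here. Permutation tests used scipy 1.17.1 and figures matplotlib 3.10.9.

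Named were Nos3, the 10 neighbours, the genes between them, the 3 largest rises and falls called in each ventricle within 50 genes of Nos3, and the 3 genes most like the neighbour of largest mean difference. Relatives were counted, and not all of the called ones are named. Members, lists and the control term were chosen with earlier results of these data known.

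Alternatives changed 1 choice each: no dim genes, a second quantile normalization, arrays centred on their medians, a variance trend with robust estimation, weights per array, a replicate block (fixed, or random), averaged probe sets, single probe sets, a fit of the compared groups alone, the poly-A control term, a threshold of 0.01, and each array left out. Deviations from the group means of same-numbered KO and WT arrays correlated at 0.011, 0.144 and 0.423 in the left and 0.111, 0.262 and 0.306 in the right ventricle, and no label pairs the pools. Whether same-numbered left and right pools of a genotype came from the same embryos is not known, and their deviations were not compared.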

Additional observations from a re-analysis of the deposited data

How the results depend on the processing

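With the poly-A control term, which rests on WT_RV replicate 3, the number of neighbours called was 0 in each direction and ventricle, where 1 higher and 2 lower had been called in the left and 3 lower in the right ventricle. At a threshold of 0.01 the left higher count and the right lower count were 0. The left higher count was 2 with dim genes left out and with median centring, which moved the median of all genes by 0.093 in the left and 0.036 in the right ventricle. The right lower count was 0 with median centring and with every probe set on its own, and 1 with the mean of all probe sets and with only the 2 compared groups. Without 1 array at a time, the left higher count ran from 0 to 1, the left lower count from 2 to 3 and the right lower count from 0 to 3. The interaction gave 0 calls among the neighbours in all alternatives run. The cause of these changes was not tested.

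The replicate number as a fixed block gave 1 higher and 3 lower in the left ventricle, with Abcf2 added (-0.31, limma adjusted p = 0.0164, and 0.0433 with a random block), and 3 lower in the right. It changed no other call of a neighbour, and 37% of the window of 50 genes on each side were called in the left and 17% in the right ventricle, against 34.8% and 11% of all genes. The numbers are not known to pair the pools.

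Differences near 0 changed sign. With median centring the left difference was 0.063 for Abcb8, 0.04 for Agap3, 0.047 for Asic3 and 0.08 for Slc4a2. With array weights it was 0.053 for Abcb8 and 0.00461 for Slc4a2, and the right one 0.0084 for Atg9b and 0.013 for Fastk. With the control term the left difference was 0.14 for Agap3, 0.073 for Asic3, 0.13 for Fastk and 0.057 for Slc4a2, and the right one 0.073 for Atg9b, 0.053 for Fastk and -0.005 for Kcnh2. With the mean of all probe sets the left difference was -0.045 for Chpf2 and -0.057 for Rbm33, and the right one -0.005 for Agap3, 0.018 for Atg9b and -0.043 for Chpf2. Quantile normalization once more gave 0.0067 for Asic3 and -0.000417 for Tmub1 in the left ventricle. Without 1 array at a time the left difference ran from -0.125 to 0.125 for Abcb8, -0.11 to 0.017 for Agap3, -0.023 to 0.11 for Atg9b, -0.068 to 0.042 for Slc4a2 and -0.06 to 0.11 for Tmub1. The right one ran from -0.02 to 0.12 for Agap3, -0.22 to 0.073 for Atg9b, -0.12 to 0.053 for Fastk and -0.005 to 0.175 for Kcnh2.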
